A study of Rattus norvegicus with 12 samples.

Results

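The intact side of the animals is described here: the right, contralateral L5 dorsal root ganglion (DRG) of Sprague Dawley rats taken on day 14 after spinal nerve ligation (SNL) of the left L5 nerve. The series holds 12 libraries in 4 groups of 3, and this Control group is 3 of them. The labels give the sex as male, whereas the methods of the study name males and females, and the labels give no age where the methods describe rats a few weeks old. These animals carried a ligated nerve on the other side, so the Control ganglion was uninjured but did not come from a naive rat, and no virus is named for it in the labels.

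For each of 28578 rows of the deposited table the Control libraries are represented by 1 pooled value in FPKM (fragments per kilobase of transcript, scaled to the mapped fragments of the library), a level per transcript length that allows genes to be compared with each other. A gene symbol stands beside 18160 of these rows. Taking, for each symbol, the row with the highest Control value left 16884 symbols or combinations of symbols, among them 403 rows that carry several symbols joined together. The spread between the 3 libraries is not in the table, so every level below is a single value without an error, and no test was made. The total number of fragments per library is unknown. Depth can be gauged from olfactory receptor rows spanning 936 bp, whose lowest values above 0 were 0.0186, 0.0206 and 0.0218 FPKM. If each of these was a single fragment, 1 FPKM at that span would stand for about 49.2 fragments. Because the spread between the libraries is not known, differences of a few percent between neighbouring genes were not read as an order.

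The DRG holds the cell bodies of primary sensory neurons, which send an axon to skin, muscle or viscera and a central branch to the spinal cord. Each cell body is wrapped by satellite glia, its axon is myelinated or ensheathed by Schwann cells, and vessels, fibroblasts and resident macrophages fill the rest. Nociceptors, the neurons that report painful heat, cold and pressure, are marked by peptides such as CGRP and substance P and by channels such as TRPV1, while large mechanoreceptors and proprioceptors are rich in neurofilament and have thick myelin. In a whole ganglion, the number of cells of a type and the RNA in each of them cannot be told apart.

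Neurofilament and lipid carrier transcripts stood at the top of the Control transcriptome. Nefl, the neurofilament light chain, had the highest level at 4662 FPKM, and the medium chain Nefm, its neighbour on chromosome 15, reached 4000.1 FPKM. In the rn5 build used by the authors, Nefl lies at chr15:46792205-46797815 and Nefm at chr15:46736795-46742182. Sncg, gamma-synuclein, had 4249 FPKM. Apoe, the apolipoprotein made by satellite glia and macrophages, had 4145 FPKM at chr1:81878371-81882298. The highest levels thus included transcripts of neurons and of their ensheathing glia. The iron store Fth1, the ferritin heavy chain, had 3317 FPKM.

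The rest of the first 25 belonged largely to the axonal cytoskeleton and to protein turnover. The actin-sequestering thymosins Tmsb10 and Tmsb4x had 2720 and 2552 FPKM. A joined row of the alpha-tubulins Tuba1a and Tuba1b had 2575 FPKM, and Tubb3, the neuronal beta-tubulin, had 2403 FPKM. Uchl1, the ubiquitin hydrolase also known as PGP9.5 and used as a pan-neuronal stain, had 2305 FPKM, next to the polyubiquitin gene Ubb with 2202 FPKM. The heavy neurofilament chain Nefh had 2155 FPKM and Prph, peripherin, the intermediate filament of small sensory neurons, 1643 FPKM. Pmp22, a myelin protein whose dosage causes inherited neuropathy, had 1895 FPKM. Also in this range were Lgals1 (galectin-1), Cst3 (cystatin C), Ppia (cyclophilin A), Gapdh, the growth-associated tubulin binder Stmn2, the surface glycoprotein Thy1, the G protein Gnas, Tppp3, Apod and Zwint, between 1708 FPKM for Lgals1 and 1084 FPKM for Zwint. No cytosolic ribosomal protein was among the first 25.

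**Figure D1:**
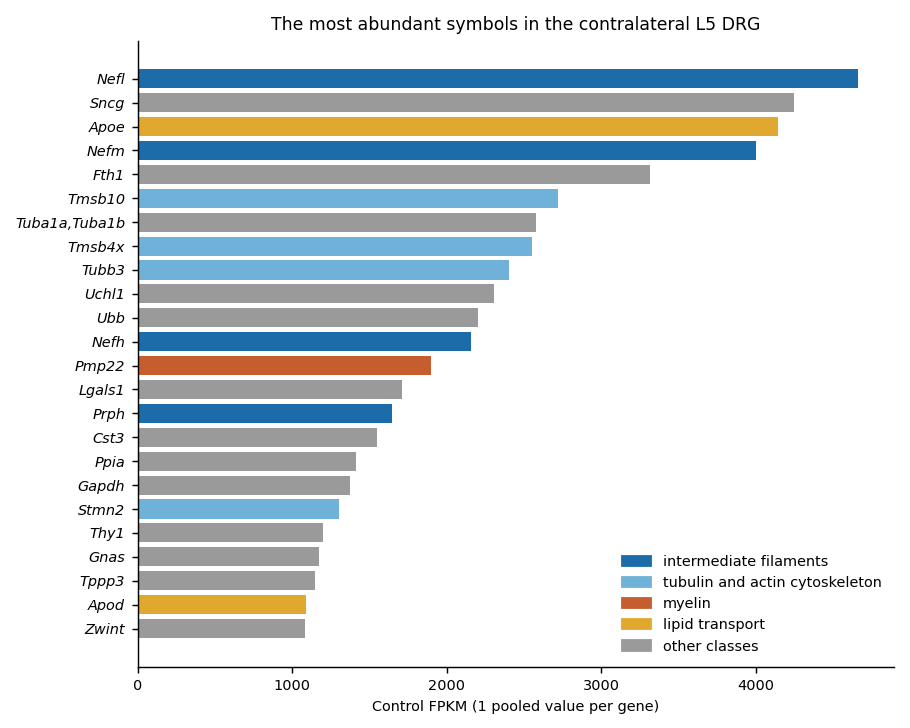
Control FPKM (horizontal axis, from 0) of 24 of the 25 most abundant symbols of the contralateral L5 DRG, each bar a single pooled value, coloured by gene class. Neurofilaments and peripherin fill 4 of the bars, with Nefl at 4662 FPKM at the top and Zwint at 1084 FPKM at the bottom.

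Of the 16884 symbols, 10901 (64.6%) had 1 FPKM or more, the level used here to call a gene present. There were 2927 symbols listed at 0, 1262 above 0 and under 0.1 FPKM, and 1794 from 0.1 to under 1 FPKM. Most present genes were of middle level: 4649 lay from 1 to under 10 FPKM, 5430 from 10 to under 100 FPKM, 787 from 100 to under 1000 FPKM, and 35 at 1000 FPKM or more. Those 35 symbols held 15.3% of the summed FPKM of named genes. The 10 most abundant held 7.76% and the 100 most abundant 25.5%, while 532 symbols made up 50% and 4590 made up 90%. The threshold itself marked no gap. Just above it stood RGD1306227 (1.001 FPKM), LOC100912071 (1.0009 FPKM) and the B cell chemokine Cxcl13 (1.0005 FPKM), and just below it the relaxin receptor Rxfp1 (0.9991 FPKM), Ajap1 (0.9979 FPKM) and the protease Astl (0.9976 FPKM).

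A feature of the DNA in front of the genes varied with the level. RefSeq promoter sequences of build GRCr8, running from 250 bases before to 50 bases after the annotated start, were matched by symbol for 11108 protein-coding genes of the table. The letters TATAAA, a common form of the TATA box that positions the start of transcription, were searched on the sense strand from 45 to 16 bases before the start. They stood there in 22.7% of the 22 matched promoters of genes at 1000 FPKM or more, that is in 5 of them: Prph, Ppia, Gapdh, Apod and Anxa2. The last 60 bases before the start of each are given, with TATAAA in capitals.
Prph (GRCr8 chr7:132097229-132097288, plus strand): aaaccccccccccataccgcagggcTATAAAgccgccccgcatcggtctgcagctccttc
Ppia (GRCr8 chr14:85493156-85493215, plus strand): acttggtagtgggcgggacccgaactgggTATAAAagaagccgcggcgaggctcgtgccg
Gapdh (GRCr8 chr4:159652468-159652527, minus strand): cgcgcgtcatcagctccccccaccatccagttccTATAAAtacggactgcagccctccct
Apod (GRCr8 chr11:82936160-82936219, plus strand): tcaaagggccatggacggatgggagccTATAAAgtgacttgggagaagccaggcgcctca
Anxa2 (GRCr8 chr8:78986192-78986251, plus strand): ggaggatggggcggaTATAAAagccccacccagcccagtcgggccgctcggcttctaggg

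In these promoters the first T of these letters lay 35 bases before the start in Prph, 31 in Ppia, 26 in Gapdh, 33 in Apod and 45 in Anxa2. The authors' rn5 table places Prph on chromosome X, at chrX:115246580-115251154, and not on 7. Across levels the share of promoters with these letters followed a U shape. From the lowest level upward it was 7.56% of 1018 promoters of genes listed at 0, 5.21% above 0 and under 0.1 FPKM, 4.37% from 0.1 to under 1 FPKM, 1.25% from 1 to under 10 FPKM, 0.615% from 10 to under 100 FPKM, 2.96% from 100 to under 1000 FPKM and 22.7% at 1000 FPKM or more. The share was lowest from 10 to under 100 FPKM, and the highest level rests on 22 promoters. Over all 11108 matched promoters the share was 2.37%, and over the 33469 promoters of the RefSeq table it was 1.62%. The reverse complement TTTATA in the same window was found in 0.549% of the matched promoters. It followed a like course, with 1.28% in genes listed at 0, 0.246% from 10 to under 100 FPKM and 9.09% (2 of 22) at 1000 FPKM or more. Of the neuropeptide genes, 6 of 29 promoters (20.7%) held TATAAA, against 1 of 97 promoters (1.03%) of voltage-gated and leak channels and 0 of 222 of chemoreceptors. Nefl, Nefm and Nefh had no entry in the promoter table.

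CG dinucleotides, the letters of CpG islands, were also counted in the 300 bases. Their median was 3 in genes listed at 0, 6 above 0 and under 0.1 FPKM, 8 from 0.1 to under 1 FPKM, 19 from 1 to under 10 FPKM and 22 in the next 2 levels up to 1000 FPKM. The 222 matched promoters of olfactory, vomeronasal and taste receptors, a class mostly listed at 0, had a median of 1. At 1000 FPKM or more the median was 16.5. The quartiles there were 10.75 and 25, and Ppia held both TATAAA and 36 CG. These most abundant genes thus ranged from few to many CG. The extremes among those without the exact letters TATAAA in the window are shown over the last 100 bases before the start, with each CG in capitals.
Tmsb10 (GRCr8 chr4:106569141-106569240, minus strand): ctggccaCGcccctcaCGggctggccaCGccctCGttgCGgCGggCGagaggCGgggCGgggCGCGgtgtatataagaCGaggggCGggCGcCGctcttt
Pmp22 (GRCr8 chr10:48294832-48294931, plus strand): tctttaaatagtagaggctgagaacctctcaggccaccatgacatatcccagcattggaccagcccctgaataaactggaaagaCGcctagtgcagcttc

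The stretch tatataa in Tmsb10 is a near match to the letters searched and was not counted. The promoter of Tmsb10 held 33 CG in its 300 bases and that of Pmp22 held 1, at levels of 2720 and 1895 FPKM. Apoe had 3 CG and Sncg 8. The span of the gene in the authors' table, introns included, also varied with the level among protein-coding rows that share their start with no other row. Its median was 0.975 kb in genes listed at 0, 11.8 kb above 0 and under 0.1 FPKM, 16.4 kb from 0.1 to under 1 FPKM, 29.7 kb from 1 to under 10 FPKM, 25.1 kb from 10 to under 100 FPKM, 11.1 kb from 100 to under 1000 FPKM and 5.38 kb in the 26 genes at 1000 FPKM or more. Genes of middle level had the longest spans. Of all 2927 symbols listed at 0, 1272 were olfactory, vomeronasal or taste receptors. The part of these receptors in the short median of that level was not tested. A match of letters is a description of the annotated start and does not show which start or which factor these ganglia used.

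Grouping the symbols into 38 classes by name showed where the transcriptome was spent. Cytosolic ribosomal proteins took 5.62% of the summed FPKM, the largest share of the classes formed, although their leader Rpl41 had 1035 FPKM, because nearly all members were high: 70 of 86 stood at 100 FPKM or more, and the median was 281 FPKM. Tubulins, actins and tubulin-binding proteins took 4.19%, led by Tmsb10, and subunits of oxidative phosphorylation 4.04%, led by Uqcr10 (1075 FPKM), Cox6a1 (834 FPKM) and Atp5b (822 FPKM). Intermediate filaments took 3.01% in a different way. Only 20 of 52 were present, since most keratins were under 1 FPKM, and Nefl, Nefm and Nefh alone made up 80.7% of the class. Glycolysis and pyruvate metabolism took 1.48%, led by Gapdh (1372 FPKM) and Aldoa (1017 FPKM).

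Classes of signalling, protein turnover, membrane lipid and cell-specific structure came next. G proteins, small GTPases and 14-3-3 proteins took 2.93%, led by Gnas (1171 FPKM) and Ywhah (960.2 FPKM). Ubiquitin and proteasome genes took 2.38%, with Uchl1 and Ubb ahead of Skp1 (572 FPKM). Lipid transport and sterol synthesis took 2.29%, in which Apoe, Apod and the desaturase Scd2 (777 FPKM), an enzyme of membrane lipid supply, made up 59.1%. Synaptic vesicle and exocytosis genes took 2.27%, and Sncg alone was 42.0% of that class. Myelin structural genes took 1.73% through 16 symbols, all present, among them Pmp22 and Mbp (1030 FPKM), the myelin basic protein. Kinesins, dynein and dynactin, the motors that carry cargo along the axon, took 0.826%, led by the kinesin light chain Klc1 (978 FPKM) and the heavy chain Kif5a (278 FPKM).

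The genes most often studied in pain took little of the total, in classes that hold few of the 16884 symbols. Their shares were not scaled to the number of symbols in a class. The 141 voltage-gated and leak ion channel symbols together took 0.640%, of which 112 were present, and the 95 symbols of sensory transduction and ligand-gated channels 0.297%, with 58 present. Neuropeptides took 0.339%, with 18 of 36 present, and 229 non-olfactory G protein-coupled receptors 0.294%, with 123 present and a median of 1.19 FPKM. Against the 64.6% of all symbols that were present, voltage-gated and leak channels lay above at 79.4%. Sensory transduction and ligand-gated channels lay below at 61.1%. The G protein-coupled receptors lay at 53.7%, and the neuropeptides were lower still. Homeobox genes took 0.0793%. Of 1351 olfactory, vomeronasal and taste receptor symbols, 1 was present, Vom1r90 at 1.19 FPKM, and 1272 were listed at 0. This class marks the low end of the table. Genes outside every class held 43.2%, joined rows 4.18%, and mitochondrially encoded genes were not among the named rows.

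**Figure D2:**
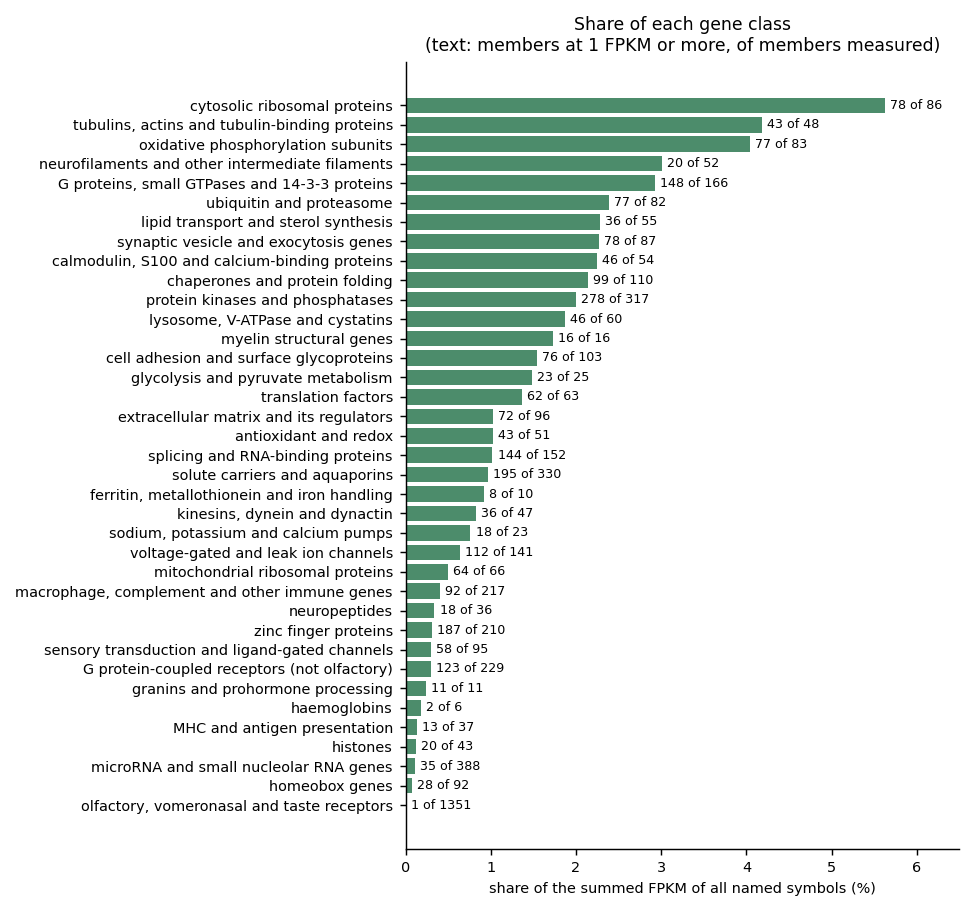
Share of the summed Control FPKM of named symbols (horizontal axis, %) for each gene class, with the number of members at 1 FPKM or more of those measured beside the bar. Cytosolic ribosomal proteins lead with 5.62%, voltage-gated and leak channels hold 0.640%, and the 1351 chemoreceptor symbols hold almost nothing.

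**Figure D3:**
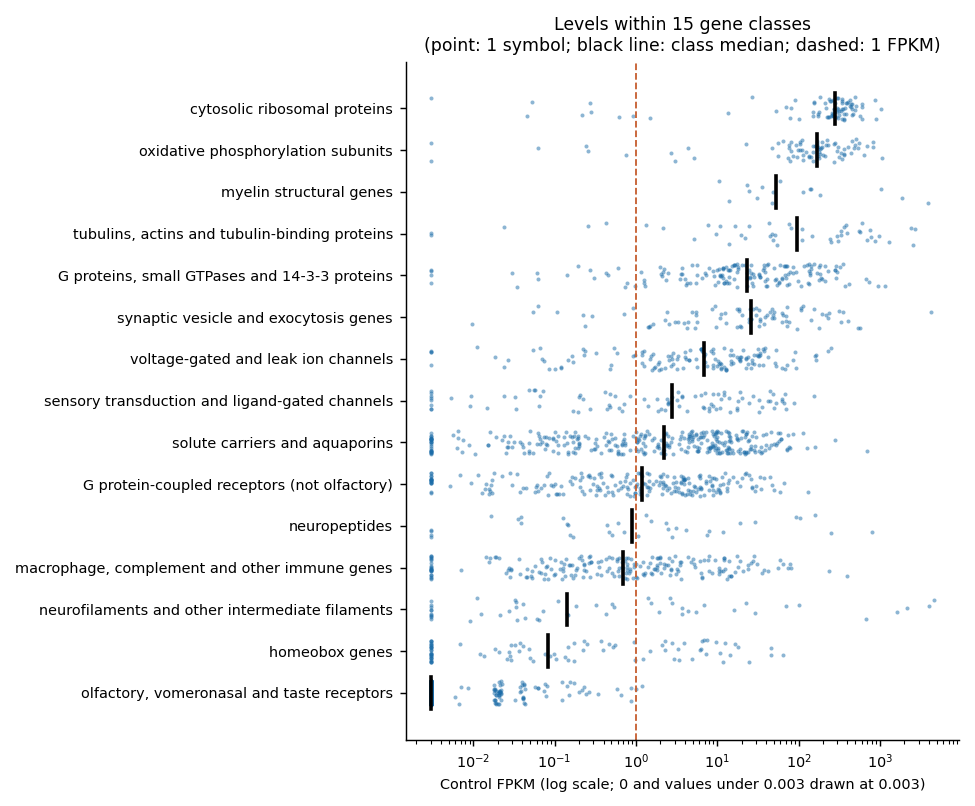
Control FPKM (log axis) of every symbol in 15 classes, with the class median as a black line and 1 FPKM dashed. Ribosomal proteins cluster around their median of 281 FPKM, while intermediate filaments are split between a few very high genes and many under 1 FPKM.

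Markers of the expected cells were checked next. For scale, 64.6% of all symbols were present. All 10 measured markers of sensory neurons were present, from Tubb3 at 2403 FPKM to the transcription factor Isl1 at 24.8 FPKM, with the actin-bundling DRG marker Avil at 397 FPKM. Of 13 measured nociceptor markers, 12 were present, led by Calca, and Th, tyrosine hydroxylase of C low-threshold mechanoreceptors, was lowest with 0.906 FPKM. All 12 markers of large neurons were present, including parvalbumin (Pvalb, 265 FPKM), a marker of proprioceptors, and osteopontin (Spp1, 455 FPKM). All 12 measured markers of myelinating Schwann cells were present, with Mag at 14.1 FPKM and Egr2, the master regulator of myelination, at 9.0 FPKM. Non-myelinating Schwann cell markers were present in 8 of 8, between Ngfr at 305 FPKM and Cadm2 at 11.5 FPKM. Transcripts that define neurons and both kinds of Schwann cell were thus in the tissue labelled DRG. Piezo2, Pou4f1, Tlx3 and Prdm12 were not measured under their own symbols.

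Satellite glia were represented by 12 of 13 measured markers, among them Fabp7 (66.9 FPKM), the glutamine synthetase Glul (122 FPKM) and the potassium channel Kcnj10 (32.1 FPKM), while the gap junction gene Gja1 was at 8.08 FPKM. Gfap, a marker of reactive glia, had 6.95 FPKM. The astrocytic glutamate transporter Slc1a2 was under the threshold with 0.434 FPKM. Endothelium (9 of 9, led by Cldn5 at 31.8 FPKM) and mural cells (9 of 9, led by Tagln at 34.3 FPKM) were present at lower levels. Fibroblast and sheath markers were present in 11 of 12, led by Apod at 1086 FPKM, with Dcn at 268 FPKM and Col1a2 as the exception at 0.221 FPKM.

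Blood and immune cells showed an uneven picture. Haemoglobin transcripts were in the tissue, with Hba1 at 557 FPKM and Hba2 at 256 FPKM, and a joined row with Hbb at 403 FPKM. Macrophage markers were present in 10 of 13 but low, with a median of 3.19 FPKM; Lyz2 had 77.9 FPKM, Aif1, which encodes IBA1, 13.8 FPKM, Cd163 0.804 FPKM and Itgam 0.666 FPKM. Of 8 T cell markers, Cd4 (6.48 FPKM), which rat macrophages also express, passed the threshold, and Cd3e was at 0.117 FPKM. B cells had 0 of 4 measured markers present, mast cells Kit alone, which sensory neurons also express, and neutrophils S100a8 (2.29 FPKM) and S100a9 (1.40 FPKM). Markers of tissues around the ganglion were low. None of 10 spinal cord markers was present, with a highest value of 0.298 FPKM for Gad1 and a sum of 0.711 FPKM. Skeletal muscle had 2 of 7, Acta1 at 5.22 FPKM and Tnnt3 at 1.97 FPKM, and adipocytes 1 of 6, Cfd at 2.72 FPKM, with Fabp4 at 0.607 FPKM and Adipoq at 0.0121 FPKM. Of 11 markers of liver and other distant tissues, Myh6 was present with 1.49 FPKM.

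**Figure D4:**
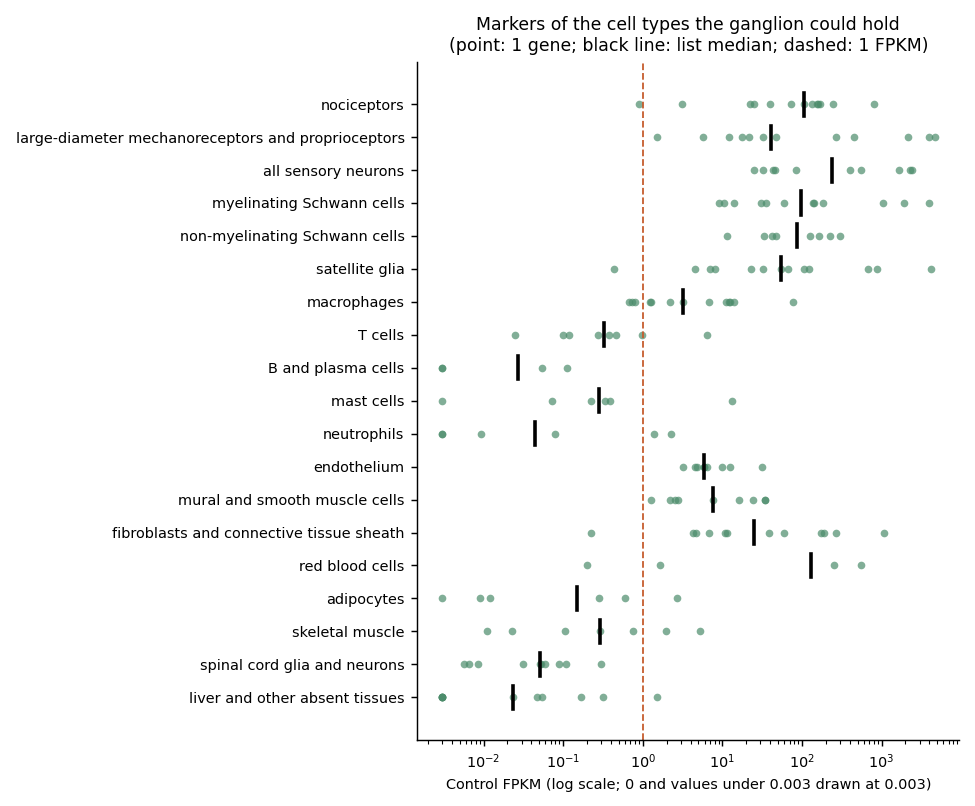
Control FPKM (log axis) of the measured markers of 19 cell types, each point 1 gene, with the median of the list as a black line and 1 FPKM dashed. The medians of the neuronal, Schwann and satellite glial lists lie far right of the dashed line, though Th and Slc1a2 lie left of it. The spinal cord list lies wholly left of the dashed line, at 0.298 FPKM or less.

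In many gene families a single member held most of the summed FPKM. In 88 families, 608 members had a row of their own, of which 431 (70.9%) were present, where 64.6% of all symbols were, and 24 more stood only in joined rows. Of the 86 families with at least 2 measured members, the leader held 50% or more of the family's summed FPKM in 51 and 80% or more in 15. In 16 it held under 33%. Members in joined rows or at doubled places, described below, can raise such a share. Tuba4a held 87.2% of the alpha-tubulins without the joined Tuba1a and Tuba1b row at 2575 FPKM. Eno1 held 98.5% of the enolases beside Eno2, a gene at a doubled place. In 12 families the leader was less than 1.2 times the next member, and these were read as shared leads.

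Voltage-gated sodium channels start and carry the action potential. Among the alpha subunits, Scn7a, the sodium sensor Nax found in glia as well as neurons, had 162 FPKM and 50.04% of the family. Of the channels of sensory axons, Scn11a (Nav1.9) had 73.0 FPKM, Scn9a (Nav1.7) 38.1 FPKM and Scn8a (Nav1.6) 32.4 FPKM. Scn10a (Nav1.8) had no row of its own, so its share is not known. Scn1a had 12.2 FPKM, and the embryonic Scn3a 2.87 FPKM. The central channel Scn2a had 1.92 FPKM. Of the beta subunits, which set gating and surface placement, Scn4b had 164 FPKM and Scn3b 26.5 FPKM.

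Potassium channels had a clear leader in some families and none in others. Kcna1 (91.3 FPKM) and Kcna2 (61.9 FPKM), the juxtaparanodal pair of Kv1 channels, made up 80.7% of their family, and Kcnab2 85.4% of the Kv beta subunits with 231 FPKM. Among the Kv4 channels of A-type current, Kcnd1 held 77.5% with 67.2 FPKM, while Kcnd2 had 0.532 FPKM. The hERG gene Kcnh2 led its family with 42.5 FPKM. The silent subunits Kcns3 (33.7 FPKM) and Kcns1 (32.8 FPKM), which modify Kv2 channels, shared the lead. Leak channels were led by Kcnk1 (26.4 FPKM), followed by the mechanosensitive TRAAK channel Kcnk4 (17.7 FPKM) and the TRESK channel Kcnk18 (10.5 FPKM). Hcn2, a pacemaker channel linked to inflammatory pain, held 59.5% of its family with 52.8 FPKM.

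Calcium channels differed by subunit class. The pore-forming subunits were spread over Cacna1b (N-type, 24.0 FPKM), Cacna1a (P/Q-type, 18.7 FPKM) and the T-type Cacna1h (14.6 FPKM), and 8 of 10 were present. The beta subunits were not spread, since Cacnb3 held 84.2% with 159 FPKM. Of the alpha2delta subunits, the site at which gabapentin binds Cacna2d1 and Cacna2d2, Cacna2d3 had 30.9 FPKM, Cacna2d2 22.9 FPKM and Cacna2d1 22.3 FPKM. No member of that family held more than 40.5%.

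Sensory transduction channels were led by those of acid and ATP sensing. P2rx3, the ATP receptor of nociceptors, held 71.5% of the P2X family with 153 FPKM. Asic3 (88.0 FPKM) and Asic1 (62.6 FPKM) made up 93.3% of the acid-sensing channels. Among TRP channels with a row of their own, Trpv2 had 32.7 FPKM, the menthol and cold receptor Trpm8 27.8 FPKM, the irritant receptor Trpa1 24.7 FPKM and the heat-sensitive Trpm3 12.05 FPKM. The capsaicin receptor Trpv1 stood in a row joined with Shpk at 56.1 FPKM. Piezo1 had 2.50 FPKM.

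**Figure D5:**
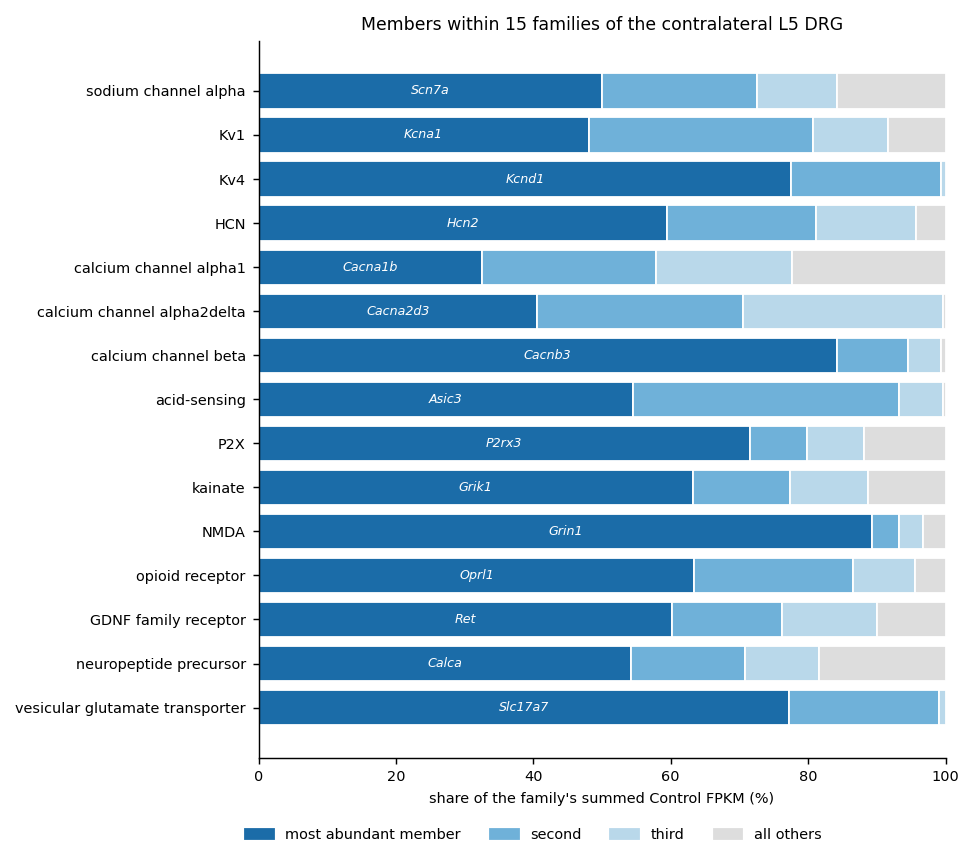
Share of each family's summed Control FPKM (horizontal axis, %) held by its most abundant member, the next and the third, and by all others, in 15 families; the most abundant member is named. Members measured only in joined rows, such as Scn10a, are not in the bars; Grin1 and Cacnb3 hold over 80% of their families, whereas Cacna1b holds 32.6% of its own.

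Transmitter receptors ranged from a near monopoly to an even mix. Grin1, the obligatory NMDA subunit, had 32.3 FPKM and 89.3% of its family, while its partners Grin2b and Grin2d were at 1.26 and 0.416 FPKM. Kainate receptors were led by Grik1 (53.3 FPKM, 63.2%), and AMPA receptors were low, with Gria4 at 3.68 FPKM and the joined row of Gria2 at 7.75 FPKM. The GABA-A subunit Gabra2 had 44.8 FPKM, and the metabotropic GABA receptor Gabbr1 had 132 FPKM. Serotonin receptors were led by Htr3b (68.5 FPKM) and Htr3a (66.7 FPKM), which form an ion channel together. Chrna3 (63.0 FPKM) and Chrnb2 (41.9 FPKM) led the nicotinic subunits.

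Receptors for opioids and itch ligands were modest. The nociceptin receptor Oprl1 had 14.1 FPKM, the mu receptor Oprm1, the target of morphine, 5.13 FPKM, Oprk1 2.01 FPKM and Oprd1 0.989 FPKM. Of 11 measured Mrgpr genes, 7 were present, where 64.6% of all symbols were. The family was led by Mrgprb4 (30.3 FPKM) and Mrgprd (22.0 FPKM), a marker of nonpeptidergic nociceptors. Adra2c held 67.9% of the adrenergic receptors with 12.6 FPKM. The receptors of growth factors were higher. The p75 receptor Ngfr had 305 FPKM, and Ret, the shared GDNF family receptor, 171 FPKM, while Ntrk2 had 47.9 FPKM and Ntrk3 17.7 FPKM. Of the ligands, Bdnf had 4.89 FPKM, and Gdnf was listed at 0.

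Peptide transmitters were led by those of peptidergic nociceptors. Calca, which encodes CGRP, had 807 FPKM and 54.2% of the family, ahead of Tac1, the substance P precursor, with 248 FPKM, Sst (somatostatin) with 159.6 FPKM and Calcb with 106 FPKM. Nmb had 92.4 FPKM and Adcyap1 29.1 FPKM. Gal and Vip, both known to be induced by axotomy, had 18.8 and 1.31 FPKM. The granins that help to form peptide vesicles were shared between Scg3 (186 FPKM), Scg2 (163 FPKM) and Scg5 (153 FPKM).

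In the release machinery Syt11 (312 FPKM) had the highest level of the synaptotagmins, ahead of Syt2 (95.9 FPKM) and Syt1 (48.8 FPKM), and Vamp1 (405 FPKM) stood above Vamp2 (231 FPKM). Of the vesicular glutamate transporters, Slc17a7 (VGLUT1, 115 FPKM) held 77.3% and Slc17a6 (VGLUT2) had 32.3 FPKM. Sncg held 94.8% of the synucleins. In its row the deposited place spans a wide bundle of genes on chromosome 16. Fxyd2, a regulator of the sodium pump, had 943 FPKM. Slc12a2, the chloride importer NKCC1, had 19.7 FPKM and the exporter Slc12a5, known as KCC2, 0.173 FPKM.

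Metabolic and structural families were among the most lopsided. Cox6a1 held nearly all of its pair with 834 FPKM, against 0.0617 FPKM for the muscle form Cox6a2. Mt3, the metallothionein of the nervous system, held 96.2% with 711 FPKM, and Slc2a1 93.4% of the glucose transporters with 38.3 FPKM. The glucose transporter share rests in part on Slc2a3 at 0.0956 FPKM. That gene is at a doubled place, described below, and its low level was not read as absence. S100a6 (1059 FPKM) and S100a10 (1043 FPKM), which escorts Nav1.8 to the membrane, shared the lead of the S100 family before S100b (883 FPKM). Anxa2, the partner of S100a10, had 1042 FPKM. Transcription factors were far lower. Isl2 had 65.03 FPKM, Drgx 45.6 FPKM, Runx1 11.2 FPKM and Runx3 5.77 FPKM, and the glial factor Sox10 53.9 FPKM. Of the Hox genes, a joined row of Hoxd9 and Hoxd10 had 22.8 FPKM, Hoxd1 14.5 FPKM and Hoxd4 11.7 FPKM. Hoxb8 had 10.8 FPKM and Hoxc10 6.14 FPKM.

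Some low values went with the place of a gene in the assembly. In 304 symbols the table holds at least 2 rows at separate places whose spans differed by 1% or less. Of these symbols 2.96% were present, with a median of 0, against 65.2% of the 15364 symbols with a single row, whose median was 4.95 FPKM. Without chemoreceptor and small RNA genes, 9 of 168 such symbols (5.36%) and 9994 of 13800 single-row symbols (72.4%) were present, and the highest of the 168 was Cbr1 at 10.2 FPKM. Genes that every cell needs were among them: Rps9 had 0.913 FPKM, Rpl8 0.614 FPKM, Rpl7a 0.276 FPKM and Rps6 was listed at 0, whereas the 81 other ribosomal protein symbols had a median of 299 FPKM. Low values were not limited to doubled places, since Rps19, one of the 81, had 0.284 FPKM. In all, 4 of the 81 were under 1 FPKM. The others were the like-named genes Rpl3l (0.215 FPKM) and Rpl39l (0.0458 FPKM) and the pseudogene symbol Rps4x-ps1 (0.0528 FPKM). The neuron-specific enolase Eno2 had 1.09 FPKM on chromosome 4 at chr4:224302788-224311633 and 0.914 FPKM on chromosome 9 at chr9:19127595-19136440, both 8845 bp, next to Eno1 with 362 FPKM. Col1a2 had 0.221 FPKM beside its partner chain Col1a1 with 175 FPKM. Npy (0.0354 FPKM), Slc2a3 (0.0956 FPKM), Hprt1 (0.0614 FPKM), Pcsk1n (1.83 FPKM) and the Hox A genes Hoxa6, Hoxa9, Hoxa11 and Hoxa13, listed at 0, were of the same kind. The part of the doubled place in these values was not tested, and no low level of such a gene was read as absence.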

How the data were processed

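RNA-seq of rat L5 DRG was deposited by the authors as FPKM, 1 value per group and row. Per the methods and labels, stranded poly(A) libraries were read in pairs, aligned to rn5 with RefSeq genes and assembled and quantified with Cufflinks Assembly & DE (Illumina), so that the 3 Control libraries were combined before deposit. The table also holds the SNL values and the authors' fold changes and p-values, which were not used, nor was the table of the virus groups. For each symbol the row with the highest Control FPKM was kept, and shares are of the summed FPKM of these rows. Rows carrying several symbols were kept as their own entries, and 23 symbols changed into dates were not named. The steps were tested on simulated data and run in Python 3.11.15 with pandas 2.3.3. The alternatives changed the row choice, the whole, the threshold and the treatment of joined and short rows. Classes, families, marker lists and thresholds were chosen with earlier results of these data known. Genes were named by rule: the 25 most abundant, leaders of classes, leaders and members of families, the ends of marker lists with defining markers under 1 FPKM, and the 3 symbols on either side of 1 FPKM; some genes that the rule names are not reported here. Genes at doubled places and the promoter sequences were chosen after their values were seen.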

Additional observations from a re-analysis of the deposited data

Results flagged for a closer look

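Of the rows without a gene symbol, 3 exceeded 100000 FPKM in the Control group. They had 213805 FPKM at chr5:126167817-126365790, 162407 FPKM at chr6:40200805-40200837 and 149329 FPKM at chr8:28365983-28366032 of rn5, and 2 of them span 32 and 49 bp. Together they held 51.5% of the summed FPKM of all rows, against 43.7% for the named symbols. They are given because they lie outside the named genes described above and far above 0, and no control without RNA was there to compare them with. The 2 short rows span less than a single read as described in the methods. The part of row length in their FPKM was not tested.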

How the results depend on the processing

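With unnamed rows counted in the whole, each share of summed FPKM fell below its value over named symbols: ribosomal proteins had 2.45%, oxidative phosphorylation 1.76%, tubulins and actins 1.83%, intermediate filaments 1.32%, synaptic vesicle genes 0.992%, lipid transport 0.998%, myelin 0.757%, voltage-gated and leak channels 0.280%, neuropeptides 0.148% and immune genes 0.177%, because the 3 rows above 100000 FPKM entered the whole. At a threshold of 10 FPKM, 6252 symbols were present in place of 10901; thresholds from 0.1 to 5 FPKM gave 12695 to 8269, rows summed 10940, joined rows left out 10588 and values rescaled to a sum of 1000000 gave 10876. Rows summed, short rows left out, joined rows given to a class and, chosen after seeing the data, doubled places left out or unnamed rows of 200 bp or more and under 100000 FPKM added, moved these shares by less than 1.5 times. The 25 most abundant symbols were the same with rows summed or short rows left out. With joined rows given to each symbol they carry, 79 of 88 families kept their leader; Trpv1, Gria2 and Tuba1a were among the new leaders. No paired analysis was possible because the table holds 1 value per group, and leaving out a replicate could not be done for the same reason.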
